A study of Mus musculus with 6 samples.

Results

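The genes that encode collagens, laminins and integrins were followed in nuclear RNA of mouse neural precursor cells, in lines labelled wild type (WT) or Fmr1 knockout (KO). The members were every gene row whose symbol named a collagen chain, a laminin alpha, beta or gamma chain, an integrin alpha chain or one of the integrin beta chains from Itgb1 to Itgb8. They numbered 80 of 23337 gene rows: 43 collagens, 11 laminins, 18 integrin alpha chains and 8 integrin beta chains. The cells had been taken from the dorsal hem of the forebrain of E13.5 embryos and were at passage 6 to 7. WT was represented by lines 3, 8 and 19 and Fmr1 KO by lines 3, 13 and 16, which the series' design text calls independent. All 6 cultures were grown as a dissociated layer on Matrigel, a basement membrane extract rich in laminin and type IV collagen, with EGF and basic FGF at 20 ng/ml each and heparin at 5 ug/ml, and were harvested near 80% confluency. Nuclei were separated from cytoplasm, and preparations were kept that held much U1 and little beta-actin RNA. The sources used here name neither the strain, nor the allele that disrupts Fmr1, nor the number of embryos behind a line.

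Collagens are secreted proteins that wind into a triple helix. The fibrillar types build fibres, type IV builds the sheet of basement membranes, and the FACIT types bind to the surface of fibres. Laminins are heterotrimers of an alpha, a beta and a gamma chain that make up the other network of basement membranes. Integrins are heterodimers of an alpha and a beta chain that span the cell surface and bind these proteins, the alpha chain largely setting which ligand is held. In the developing cortex the end-feet of radial glia, the neural precursors, are anchored through integrins to the laminin-rich basement membrane under the meninges.

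Levels are given in CPM, the counts a gene would have in a library of 1000000 counts, with library totals adjusted by edgeR's TMM factors, and in the order WT lines 3, 8 and 19, then KO lines 3, 13 and 16. Total counts ran from 18702738 to 26789522 per library, and 1 count was worth 0.0373 to 0.0535 CPM before that scaling. Fmr1, the targeted gene, was at 223, 269.8 and 274 CPM in WT and at 371, 188 and 153 CPM in the libraries labelled KO. The library labelled KO line 3 thus lay above every WT library, against its label, while lines 13 and 16 lay below, and over the groups no difference passed (log2 fold change -0.10, SE 0.29, edgeR adjusted p = 0.795). Gene-level counts leave unknown which part of Fmr1 was read. Xist, the RNA of the inactive X chromosome, was at 15783, 18582 and 80.6 per 1000000 counts in WT and at 19659, 3.39 and 1.69 in the libraries labelled KO, high in WT lines 3 and 8 and in the library labelled KO line 3. Between libraries of a group, line 19 in WT and line 3 in KO differed most from the others, by a chi-square over the counts of all genes. Genes with very many counts, such as Xist and Rn45s, weigh heavily in that measure. Rn45s was at 2065, 1741 and 18739 CPM in WT and 1078, 1893 and 2568 CPM in the libraries labelled KO. For these reasons groups are called WT and labelled KO, and member calls that change without the library labelled KO line 3 are given both ways. Where KO line 13 or KO line 16 is written, KO is likewise only the label. Nothing says that the lines differed only in genotype. The p-values set the difference between the groups against the spread among the 3 lines within each group.

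Among members whose level changed, most had less RNA in the libraries labelled KO. Of the 80 members, 62 had enough counts to be tested, and edgeR's quasi-likelihood test with Benjamini-Hochberg adjustment called 26 lower and 12 higher, while 24 did not pass. Over all 13925 genes tested, 20.4% were called lower, 21.8% higher and 42.3% in either direction. At least 2-fold lower were 20 of the 62 tested members, where 8.43% of all tested genes were, and at least 2-fold higher were 10, where 5.72% of all genes were. The median log2 fold change was -0.58 over the tested members and 0.01 over all tested genes. The highest WT library lay below the lowest library labelled KO, or the reverse, in 40 of the 62 tested members, 13 above WT and 27 below it, where 54.3% of all tested genes did not overlap, 28.6% above and 25.7% below. Without the library labelled KO line 3, all 38 calls remained and 6 more members were called, and without both WT line 19 and the library labelled KO line 3, 37 remained and 8 were added. Counts of all 80 members made up 0.596 to 0.696% of a WT library and 0.354 to 0.427% of a library labelled KO. In nuclear RNA from a whole culture, fewer cells of a kind and less nuclear RNA of a gene per cell cannot be told apart. RNA of the whole cell was not measured, so that falls and rises here are those of nuclear RNA.

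By family, collagens were called in both directions, with 13 of 32 tested members lower and 8 higher. Integrin alpha chains were lower in 7 and higher in 2 of 15, and integrin beta chains were lower in 4 and higher in 0 of 6. The shares lower were 40.6% for collagens, 46.7% for integrin alpha and 66.7% for integrin beta chains, where 20.4% of all tested genes were. The shares higher were 25%, 13.3% and 0%, where 21.8% of all tested genes were. The same 20.4% and 21.8% stand beside the counts by class below, which rest on few genes. Laminins had 2 lower and 2 higher of 9, shares of 22.2% each that were close to those of all tested genes. Summed over its members, the collagen family was at 2105 to 2637 CPM in WT and 1032 to 1259 CPM in the libraries labelled KO, and the integrin alpha family at 1509.6 to 1674 against 935 to 979 CPM. Integrin beta chains summed to 828 to 864 against 387 to 447 CPM. These sums did not overlap between the groups, whereas those of laminins did, at 1398 to 1891 against 1281 to 1576 CPM.

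**Figure D1:**
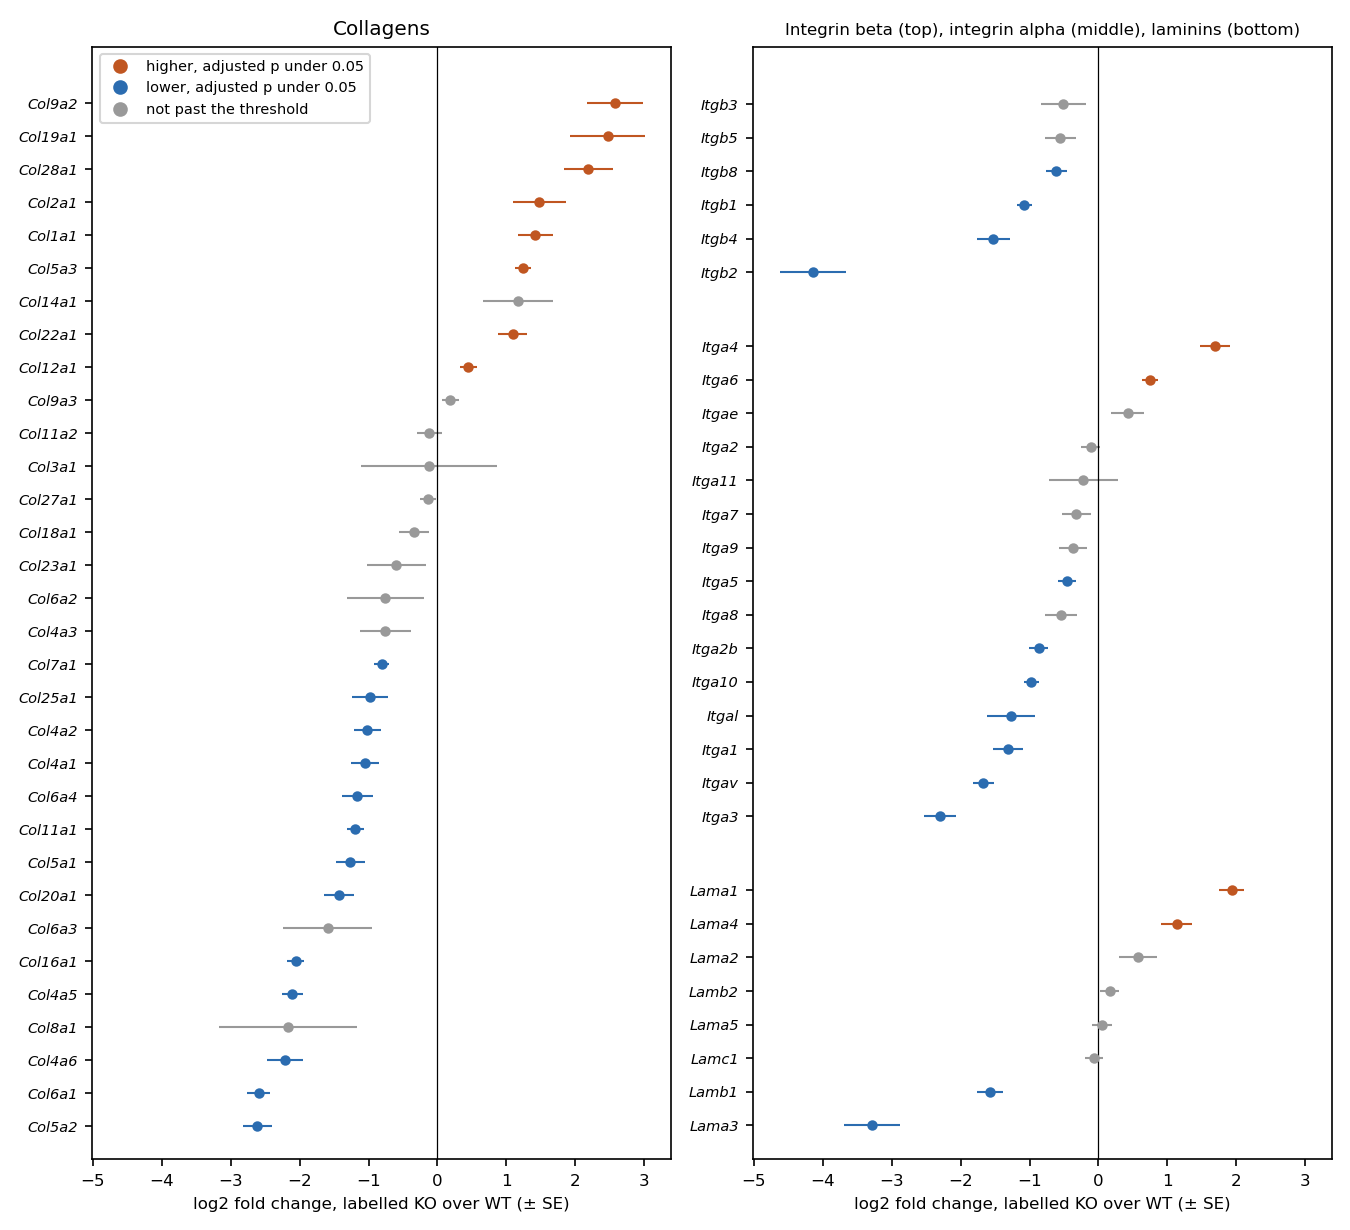
Log2 fold change of 61 of the 62 tested members between the libraries labelled KO and WT, with bars for the standard error (SE, from the edgeR fit, n = 3 lines each) and colours for the direction of calls at an adjusted p under 0.05. Collagens spread to both sides of 0, from -2.62 for Col5a2 to 2.58 for Col9a2, and all 6 tested integrin beta chains lie below 0.

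Type IV collagen, the collagen of basement membranes, was lower in the libraries labelled KO. Its 6 genes summed to 840 to 1132 CPM in WT and 216 to 273 CPM in the libraries labelled KO. Of 5 tested members 4 were called lower and 0 higher, where 20.4% of all tested genes were called lower and 21.8% higher. Col4a5, whose human counterpart is mutated in Alport syndrome, was at 497, 570 and 661 CPM in WT and 113, 134 and 154 CPM in the libraries labelled KO (log2 fold change -2.10, SE 0.16, edgeR adjusted p = 3.38e-05). Col4a6, its neighbour and partner in trimers, was at 249, 269 and 372 CPM in WT and 39.2, 78 and 74.2 CPM in the libraries labelled KO (log2 fold change -2.21, SE 0.26, edgeR adjusted p = 3.03e-04). Every library labelled KO was thus below every WT library by a wide margin for both genes, and the library labelled KO line 3 was the lowest for both. The classical chains Col4a1 and Col4a2, present in nearly all basement membranes, fell by less.

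Col4a1 measured 55.2, 54.2 and 58.5 CPM in WT and 35.7, 18.7 and 27.1 CPM in the libraries labelled KO (log2 fold change -1.05, SE 0.20, edgeR adjusted p = 0.0036). For Col4a2 the values were 38.6, 39.9 and 39.7 against 26.5, 14.8 and 17.1 CPM (log2 fold change -1.02, SE 0.20, edgeR adjusted p = 0.00351). The WT libraries lay close together for both genes, and among the libraries labelled KO line 3 was the highest. Col4a3, a chain of the kidney glomerulus, had 18, 11 and 12 counts in WT and 8, 11 and 5 in the libraries labelled KO and did not pass (log2 fold change -0.76, edgeR adjusted p = 0.13). Col4a4 had too few counts to be tested, at 9, 9 and 6 and 29, 9 and 11. Per kb of exon, Col4a5 was at 85.7 CPM per kb in WT, the highest of all collagens, against 7.5 CPM per kb for Col4a1. In the libraries labelled KO the same length-scaled levels were 19.9 and 3.64 CPM per kb.

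The type IV genes lie in head-to-head pairs that are transcribed away from each other. Fold changes were alike in the pairs with both genes tested, which leaves out the pair of Col4a4 and Col4a3. The gene models of Col4a1 (ENSMUSG00000031502.11, chromosome 8, 11198423 to 11312826 in GRCm38) and Col4a2 (ENSMUSG00000031503.13, chromosome 8, 11312805 to 11449287) overlap at their starts by 22 bases. Those of Col4a6 (ENSMUSG00000031273.16, chromosome X, 141165403 to 141474076) and Col4a5 (ENSMUSG00000031274.16, chromosome X, 141475385 to 141689234) are 1308 bases apart. The bases before the start of the latter pair are shown because this stretch lies between the 2 most strongly lowered basement membrane collagens. They are from RefSeq's promoter windows in GRCm38.p6, 5′ to 3′ on each gene's own strand, cut where the gene model of GENCODE mouse release 21 begins. Capitals mark the letters GGGCGG, known as the GC box, CCAAT, or TATAAA, known as the TATA box, on either strand.
Col4a6, chrX:141474077-141474326, minus strand: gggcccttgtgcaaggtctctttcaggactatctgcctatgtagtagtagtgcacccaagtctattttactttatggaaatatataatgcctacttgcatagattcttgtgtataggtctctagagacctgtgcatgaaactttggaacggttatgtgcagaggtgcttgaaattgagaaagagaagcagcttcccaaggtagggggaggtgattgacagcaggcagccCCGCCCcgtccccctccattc
Col4a5, chrX:141475169-141475384, plus strand: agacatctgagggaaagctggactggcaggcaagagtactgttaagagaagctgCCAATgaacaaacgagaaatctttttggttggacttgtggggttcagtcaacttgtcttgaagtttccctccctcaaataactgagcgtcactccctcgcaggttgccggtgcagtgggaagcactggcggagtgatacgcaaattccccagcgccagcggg
The Col4a6 stretch holds 1 GC box in reverse orientation, beginning 21 bases from its end, and the Col4a5 stretch 1 CCAAT, beginning 162 bases from its end.

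Promoter windows, which run from 250 bases before to 50 bases after a start, were at hand for 58 of the 80 members. On either strand, GGGCGG was found in 33 of 58 members, CCAAT in 17 of 58 and TATAAA in 5 of 58. Among the 27025 genes with such a window, tested here or not, the shares were 38.2%, 41.1% and 15.7%. A gene counted if any of its windows held the letters. CCAAT was found for 11 of 21 members called lower, 1 of 5 called higher, 1 of 16 that did not pass and 4 of 16 not tested. GGGCGG was found for 15 of 21, 3 of 5, 10 of 16 and 5 of 16 of the same groups. For TATAAA the numbers were 0 of 21, 0 of 5, 2 of 16 and 3 of 16. These letters were only matched, and a match is not a binding site.

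Among the fibrillar collagens, the chains of type V moved in opposite directions. Of 9 tested members 3 were lower, 3 higher and 3 did not pass. Type V collagen regulates the width of fibrils as trimers that mix Col5a1, Col5a2 and Col5a3 chains. Col5a2 had the largest fall of all tested collagens, from 136, 174 and 151 CPM in WT to 25.1, 17.9 and 32.4 CPM in the libraries labelled KO (log2 fold change -2.62, SE 0.21, edgeR adjusted p = 4.75e-05). Col5a1 was at 250.3, 216 and 357 against 89.6, 117 and 135 CPM (log2 fold change -1.27, SE 0.21, edgeR adjusted p = 0.00158). Col5a3 went the other way, from 44.5, 48.7 and 58.3 to 119, 116 and 123 CPM (log2 fold change 1.24, SE 0.12, edgeR adjusted p = 1.23e-04). No library of one group reached the range of the other for any of these chains. Within a library the ratio of Col5a3 to Col5a1, both per kb of exon, was 0.222, 0.282 and 0.204 in WT and 1.66, 1.23 and 1.137 in the libraries labelled KO.

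Col11a1, a chain of cartilage-type fibrils, was at 108, 119 and 139 CPM in WT and 52.3, 49.2 and 58.5 CPM in the libraries labelled KO (log2 fold change -1.19, SE 0.13, edgeR adjusted p = 1.76e-04). Its partner Col11a2 stayed between 4.99 and 7.5 CPM in all 6 libraries and did not pass (log2 fold change -0.12, 95% interval -0.54 to 0.30). Col1a1 and Col2a1, the main collagens of bone and cartilage, were scarce but higher in the libraries labelled KO. Col1a1 had 26, 29 and 30 counts in WT and 61, 78 and 96 in the libraries labelled KO (log2 fold change 1.42, SE 0.25, edgeR adjusted p = 0.00235), and Col2a1 had 11, 10 and 11 against 40, 25 and 24 (log2 fold change 1.48, SE 0.39, edgeR adjusted p = 0.014). Col1a2, the partner of Col1a1 in type I collagen, had at most 7 counts in a library and was not tested. Col27a1 was at 38.3, 33.6 and 39.2 against 32, 35.9 and 33.1 CPM and did not pass (log2 fold change -0.14, 95% interval -0.39 to 0.11).

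Col3a1, a collagen of vessels and other soft tissue, varied widely among the libraries labelled KO. It measured 3.95, 5.78 and 5.96 CPM in WT and 12.9, 0.254 and 1.63 CPM in the libraries labelled KO, so that the library labelled KO line 3 stood above the WT range and lines 13 and 16 below it. The 12 fibroblast and meninges markers summed to 239.8, 259 and 264 CPM in WT and 151, 114 and 123 CPM in the libraries labelled KO. Line 3 was thus below every WT library but the highest of those labelled KO. The part of these markers in the Col3a1 values was not tested. The log2 fold change of -0.12 did not pass (edgeR adjusted p = 0.934), and without the library labelled KO line 3 it was -2.46 (edgeR adjusted p = 0.00784). Col8a1, a network-forming collagen of endothelium, was at 1.06, 1.32 and 5.86 CPM in WT and 1.76, 0.127 and 0.0429 CPM in the libraries labelled KO. Its log2 fold change of -2.17 did not pass (edgeR adjusted p = 0.112). WT line 19 was the high library here, and without it the log2 fold change was -0.99 (edgeR adjusted p = 0.465), whereas without the library labelled KO line 3 it was -4.87 (edgeR adjusted p = 0.0363). Col15a1, a basement membrane collagen, had 4, 2 and 25 counts in WT and 175, 7 and 5 counts in the libraries labelled KO. Its counts thus came largely from the library labelled KO line 3, and it did not meet the filter for the test.

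The FACIT collagens, which decorate fibrils, were the class with the most members called higher. Of 8 tested, 4 were higher, 2 lower and 2 did not pass, where 21.8% of all tested genes were called higher and 20.4% lower. Per kb of exon, the 2 that fell were more abundant in WT than 3 of the 4 that rose. Col16a1 was at 181, 201 and 233 CPM in WT and 51, 46.7 and 50.1 CPM in the libraries labelled KO (log2 fold change -2.06, SE 0.12, edgeR adjusted p = 1.85e-05), with little spread within either group. Col20a1 was at 15.7, 16.3 and 20.3 against 4.33, 8.2 and 6.74 CPM (log2 fold change -1.43, SE 0.22, edgeR adjusted p = 0.00124). Col12a1, which binds type I fibrils, rose slightly, from 97.9, 131 and 117 to 153, 158 and 159.9 CPM (log2 fold change 0.45, SE 0.12, edgeR adjusted p = 0.0171). That call was lost without WT line 3 (edgeR adjusted p = 0.107) and without KO line 13 (edgeR adjusted p = 0.0535).

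Col19a1, which some neurons of the mouse brain make, had 35, 6 and 13 counts in WT and 142, 83 and 55 in the libraries labelled KO (log2 fold change 2.47, SE 0.54, edgeR adjusted p = 0.00631). It was highest in the library labelled KO line 3, without which the log2 fold change was 1.87, and lowest in WT line 8. WT line 3 was the highest of the WT libraries, and without it the log2 fold change was 3.12. Col9a2, a FACIT chain of cartilage, had 13, 4 and 5 counts in WT and 53, 43 and 33 in the libraries labelled KO, the highest fold change of the tested members (log2 fold change 2.58, SE 0.41, edgeR adjusted p = 0.00126). Col22a1, found at tissue junctions, went up from 2.71, 2.13 and 2.33 to 4.01, 5.41 and 5.92 CPM (log2 fold change 1.09, SE 0.21, edgeR adjusted p = 0.00345). Col9a3, the partner of Col9a2, was far more abundant per kb of exon and overlapped between groups, at 48.8, 55.7 and 46.3 and 64.6, 54.3 and 52.4 CPM (log2 fold change 0.18, 95% interval -0.10 to 0.46). Its exons overlap those of Tcfl5 on the opposite strand. Col14a1 had 9, 2 and 11 counts in WT and 16, 12 and 22 in the libraries labelled KO and did not pass (edgeR adjusted p = 0.0937, and 0.0455 without WT line 19).

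Type VI collagens form beaded filaments, and Col28a1 was grouped with them here as a related gene. Of this class Col6a1 and Col6a4 fell and Col28a1 rose among 5 tested. Col6a1 was at 21.7, 24.4 and 21.9 CPM in WT and 3.79, 2.96 and 4.46 CPM in the libraries labelled KO (log2 fold change -2.60, SE 0.17, edgeR adjusted p = 2.27e-05). The chains it assembles with, Col6a2 and Col6a3, were at no more than 2.28 CPM in any library and did not pass (edgeR adjusted p = 0.302 and 0.0748). Without WT line 3 Col6a2 passed (log2 fold change -1.22, edgeR adjusted p = 0.0482). Col6a3 passed without WT line 3 or without the library labelled KO line 3 (log2 fold changes -2.02 and -2.43, edgeR adjusted p = 0.0204 and 0.00981). Col6a4, a chain made in mouse but not in human, was at 2.34, 2.38 and 2.66 against 1.02, 1.01 and 1.24 CPM (log2 fold change -1.16, SE 0.22, edgeR adjusted p = 0.0031). Col28a1, made by Schwann cells of peripheral nerve, had 15, 17 and 10 counts in WT and 82, 54 and 54 in the libraries labelled KO (log2 fold change 2.19, SE 0.36, edgeR adjusted p = 0.00149).

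Of the remaining collagens, Col18a1, the basement membrane collagen that releases endostatin, had the second highest mean level per kb of exon of the collagens in WT and the highest in every library labelled KO, and did not pass. It was at 259.6, 291 and 246 CPM in WT and 137, 212 and 279 CPM in the libraries labelled KO (log2 fold change -0.34, 95% interval -0.84 to 0.16). The libraries labelled KO covered a wide range, with line 16 inside the WT range, and without line 16 the fall passed (log2 fold change -0.59, edgeR adjusted p = 0.0392). Col7a1, of the anchoring fibrils of skin, was at 31.4, 31.6 and 33.9 against 17.5, 19.1 and 18.7 CPM (log2 fold change -0.81, SE 0.11, edgeR adjusted p = 5.18e-04). Col25a1, a transmembrane collagen first found in amyloid plaques, was at 6.88, 4.15 and 8.46 against 3.85, 3 and 3.09 CPM (log2 fold change -0.98, SE 0.26, edgeR adjusted p = 0.0163). The Col25a1 call was lost without WT line 19 (edgeR adjusted p = 0.0584) and without KO line 13 (edgeR adjusted p = 0.0593). Col23a1, another transmembrane collagen, had 33, 25 and 24 counts in WT and 27, 18 and 8 in the libraries labelled KO. It did not pass with all 6 libraries (edgeR adjusted p = 0.287) and did without the library labelled KO line 3 (log2 fold change -1.17, edgeR adjusted p = 0.0202).

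**Figure D2:**
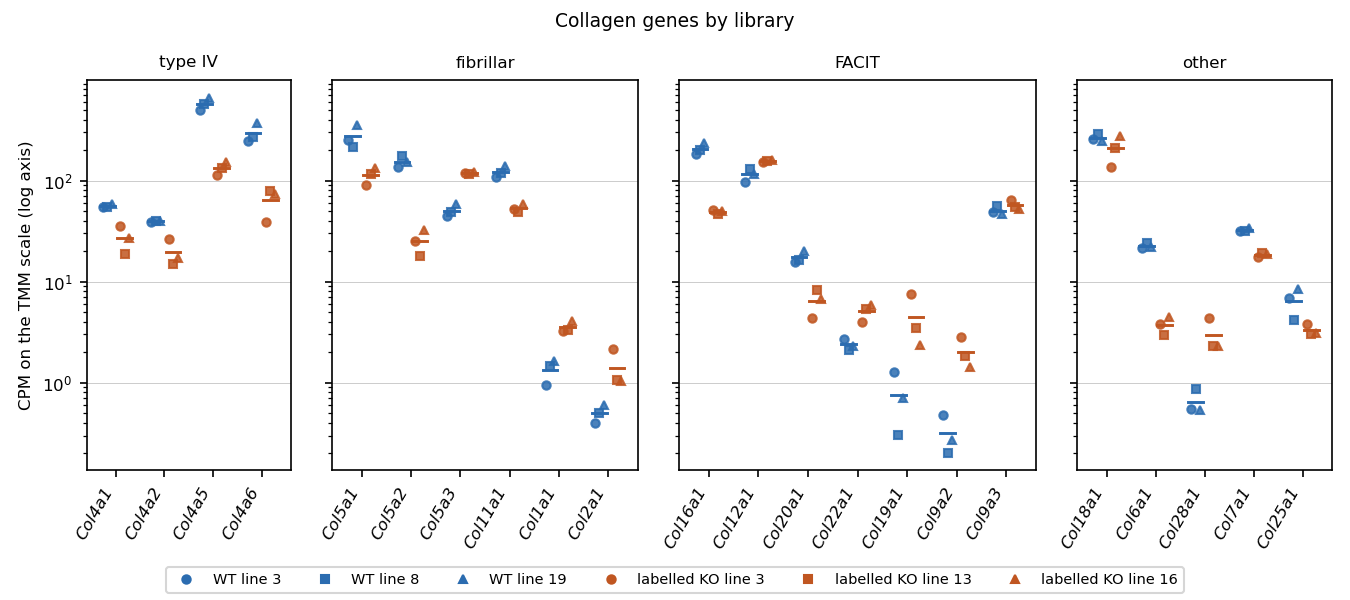
CPM on the TMM scale (log axis) of 22 collagen genes in each of the 6 libraries, by class, with a bar at the mean of each group (n = 3 lines). Col4a5, Col4a6, Col5a2, Col16a1 and Col6a1 show WT libraries well above the libraries labelled KO, Col5a3 the reverse, and Col18a1 and Col9a3 overlap.

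Among the laminins, Lama3 and Lamb1 fell and Lama1 and Lama4 rose, while the chains with the highest level per kb of exon at each position did not pass. Lama5, the most abundant laminin per kb of exon, Lamc1, the gamma chain of most laminins, and Lamb2 overlapped between the groups. Lama5 was at 653, 818 and 879.6 CPM in WT and 689, 873 and 868 CPM in the libraries labelled KO (log2 fold change 0.048, 95% interval -0.29 to 0.38). For Lamc1 the values were 277, 332 and 334 and 271, 279 and 348 CPM (log2 fold change -0.068, 95% interval -0.37 to 0.23). Lamb2 was at 129, 132 and 171 and 144, 165 and 173 CPM (log2 fold change 0.16, 95% interval -0.15 to 0.47). Differences up to the ends of these intervals cannot be told from none at this spread. Without WT line 19 and the library labelled KO line 3, the libraries that stood apart, Lamb2 alone of these chains passed (log2 fold change 0.38, edgeR adjusted p = 0.00512).

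Lama3, an alpha chain known from epithelia, had the largest fall of the tested laminins (ENSMUSG00000024421.16, chromosome 18, 12333819 to 12583013 in GRCm38). It was at 149, 70.8 and 229 CPM in WT and 10.2, 17.8 and 17.8 CPM in the libraries labelled KO (log2 fold change -3.29, SE 0.41, edgeR adjusted p = 3.86e-04). The WT lines differed widely among themselves, line 8 being the lowest, and still all lay above the libraries labelled KO. Without WT line 19 and the library labelled KO line 3 together the log2 fold change was -2.62 (edgeR adjusted p = 0.0423). Lamb3, with which Lama3 forms the laminin of epithelial hemidesmosomes, was nearly absent, with 1, 3 and 3 counts in WT and 7, 3 and 5 in the libraries labelled KO, too few to test. Lamb1, the beta chain of early embryonic laminin, fell from 160.2, 188 and 243 to 57.3, 60.2 and 81.1 CPM (log2 fold change -1.57, SE 0.19, edgeR adjusted p = 2.99e-04).

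Lama1 and Lama4 were the laminins that rose. Lama1, the alpha chain of the earliest embryonic basement membranes and of the pial surface (ENSMUSG00000032796.8, chromosome 17, 67697259 to 67822647 in GRCm38), went from 11.2, 10.8 and 17.3 CPM in WT to 50.6, 46.6 and 52.4 CPM in the libraries labelled KO (log2 fold change 1.93, SE 0.18, edgeR adjusted p = 9.86e-05). The libraries labelled KO lay within a narrow range, and the lowest of them was well above the highest WT library. Lama4, an alpha chain of vessel walls, changed from 17.2, 21.6 and 15.7 to 55.3, 30.1 and 34.4 CPM (log2 fold change 1.135, SE 0.23, edgeR adjusted p = 0.00442), with the library labelled KO line 3 the highest. Lama2, the alpha chain of muscle, had 30, 19 and 15 counts in WT and 35, 29 and 30 in the libraries labelled KO and did not pass (log2 fold change 0.58, edgeR adjusted p = 0.121).

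Integrin alpha chains are grouped by their ligands. Of the laminin-binding chains, Itga3 fell, Itga6 rose and Itga7 did not pass. Itga3 was at 13.9, 12.4 and 18.4 CPM in WT and 2.19, 3.13 and 3.65 CPM in the libraries labelled KO (log2 fold change -2.30, SE 0.23, edgeR adjusted p = 1.23e-04). Itga6, a marker of neural stem cells and a partner of Itgb1 and Itgb4, was at 102, 122 and 117 against 172, 206 and 195 CPM (log2 fold change 0.75, SE 0.12, edgeR adjusted p = 0.00115). Itga7 was at 319, 305 and 359.9 CPM in WT and 171, 312 and 304 CPM in the libraries labelled KO (log2 fold change -0.32, 95% interval -0.79 to 0.15). Only the library labelled KO line 3 was outside the WT range for Itga7 by a large margin. The ratio of Itga6 to Itga7, both per kb of exon, was 0.286, 0.358 and 0.292 in WT and 0.902, 0.594 and 0.575 in the libraries labelled KO.

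The chains that bind the RGD motif of fibronectin and vitronectin fell in 3 of 4 cases, where 20.4% of all tested genes were called lower. Itgav, the most abundant integrin alpha chain per kb of exon in WT (ENSMUSG00000027087.11, chromosome 2, 83724397 to 83806916 in GRCm38), was at 836, 880.3 and 921 CPM in WT and 343, 246 and 239.6 CPM in the libraries labelled KO (log2 fold change -1.67, SE 0.15, edgeR adjusted p = 8.53e-05). Itga5, the alpha chain of the classical fibronectin receptor, was at 105, 95.2 and 117 against 66, 80.7 and 83.8 CPM (log2 fold change -0.46, SE 0.13, edgeR adjusted p = 0.0194). Its call was lost without WT line 3 (edgeR adjusted p = 0.0672) and without WT line 19 (edgeR adjusted p = 0.0733). Itga2b, the platelet chain, was at 17, 18.4 and 19.1 against 8.55, 10.4 and 10.9 CPM (log2 fold change -0.87, SE 0.14, edgeR adjusted p = 0.00126). Itga8 was at 8.08, 8.16 and 6.72 against 7.16, 3.68 and 5.02 CPM and did not pass (edgeR adjusted p = 0.0928), but passed without the library labelled KO line 3 (log2 fold change -0.81, edgeR adjusted p = 0.00364).

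Of the collagen-binding chains, Itga1 and Itga10 fell, and Itga2 and Itga11 did not pass. Itga1 was at 33.2, 33.4 and 40.5 CPM in WT and 20.3, 11.6 and 11.4 CPM in the libraries labelled KO (log2 fold change -1.31, SE 0.22, edgeR adjusted p = 0.0018), and Itga10 at 29.2, 29.8 and 27.5 against 14.7, 15.1 and 14.3 CPM (log2 fold change -0.97, SE 0.11, edgeR adjusted p = 2.06e-04). Itga2 stayed within 11 to 13.7 CPM in all 6 libraries (log2 fold change -0.11, 95% interval -0.43 to 0.21). Itga11 had no more than 18 counts in a library. Itga4, which binds VCAM1 and fibronectin, went up from 27.4, 22.1 and 23.2 CPM in WT to 109, 66.3 and 60.9 CPM in the libraries labelled KO (log2 fold change 1.69, SE 0.22, edgeR adjusted p = 4.59e-04), with the library labelled KO line 3 the highest. Its exons overlap those of Cerkl on the opposite strand. Itga9, its closest relative, was at 4.28, 3.95 and 5.15 and 2.78, 3.55 and 3.99 CPM and did not pass (log2 fold change -0.37, edgeR adjusted p = 0.174).

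Of the leukocyte alpha chains, Itgam, Itgax and Itgad were at or near 0. Itgam had 1, 1 and 0 counts in WT and 0, 2 and 0 in the libraries labelled KO, Itgax had 0 counts in all WT libraries and 3 in all over the libraries labelled KO, and Itgad had 2 over WT and 0 over the libraries labelled KO. Itgal had 15, 13 and 13 against 4, 7 and 6 counts and was called lower (log2 fold change -1.27, SE 0.35, edgeR adjusted p = 0.0174). That call was lost without WT line 8 (edgeR adjusted p = 0.0556), without WT line 19 (edgeR adjusted p = 0.0572) and without KO line 16 (edgeR adjusted p = 0.0568). Itgae, the chain of epithelial lymphocytes, was at 3.11, 4.86 and 4.56 and 6.52, 6.09 and 4.16 CPM and did not pass (edgeR adjusted p = 0.181).

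Itgb1, the beta chain shared by the laminin and collagen receptors, had the highest level per kb of exon of all members. It fell from 699, 764 and 719 CPM in WT to 368, 307 and 359 CPM in the libraries labelled KO (log2 fold change -1.08, SE 0.11, edgeR adjusted p = 1.52e-04; ENSMUSG00000025809.15, chromosome 8, 128685654 to 128733200 in GRCm38). The WT libraries lay close together, and every library labelled KO lay far below all of them. Itgb8, a partner of Itgav on radial glia in mouse, fell from 61, 56.8 and 67 to 49.5, 37.1 and 34.6 CPM (log2 fold change -0.61, SE 0.15, edgeR adjusted p = 0.0106). Itgb4, which pairs with Itga6 in hemidesmosomes, fell from 3.88, 5.42 and 5.91 to 1.34, 1.99 and 1.89 CPM (log2 fold change -1.52, SE 0.24, edgeR adjusted p = 0.00132), opposite to Itga6.

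Itgb2, the leukocyte beta chain, had the largest fall of all tested members but few counts, 70, 25 and 38 in WT and 2, 4 and 1 in the libraries labelled KO (log2 fold change -4.15, SE 0.48, edgeR adjusted p = 2.65e-04). Itgb5, another partner of Itgav and the second beta chain by level per kb of exon, was at 60.6, 35.9 and 59.6 CPM in WT and 27, 39.2 and 40.3 CPM in the libraries labelled KO. WT line 8 lay within the range of the libraries labelled KO, and the log2 fold change of -0.55 did not pass (edgeR adjusted p = 0.0741). Without WT line 8 it was -0.76 (edgeR adjusted p = 0.0176). Itgb3 had 28, 20 and 15 and 13, 21 and 10 counts and did not pass (edgeR adjusted p = 0.241). Itgb7 had at most 12 counts in a library, and Itgb6 had 0 counts in all 6 libraries, which allows up to 0.112 to 0.16 CPM at a floor of 3 counts per library, counting error only.

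**Figure D3:**
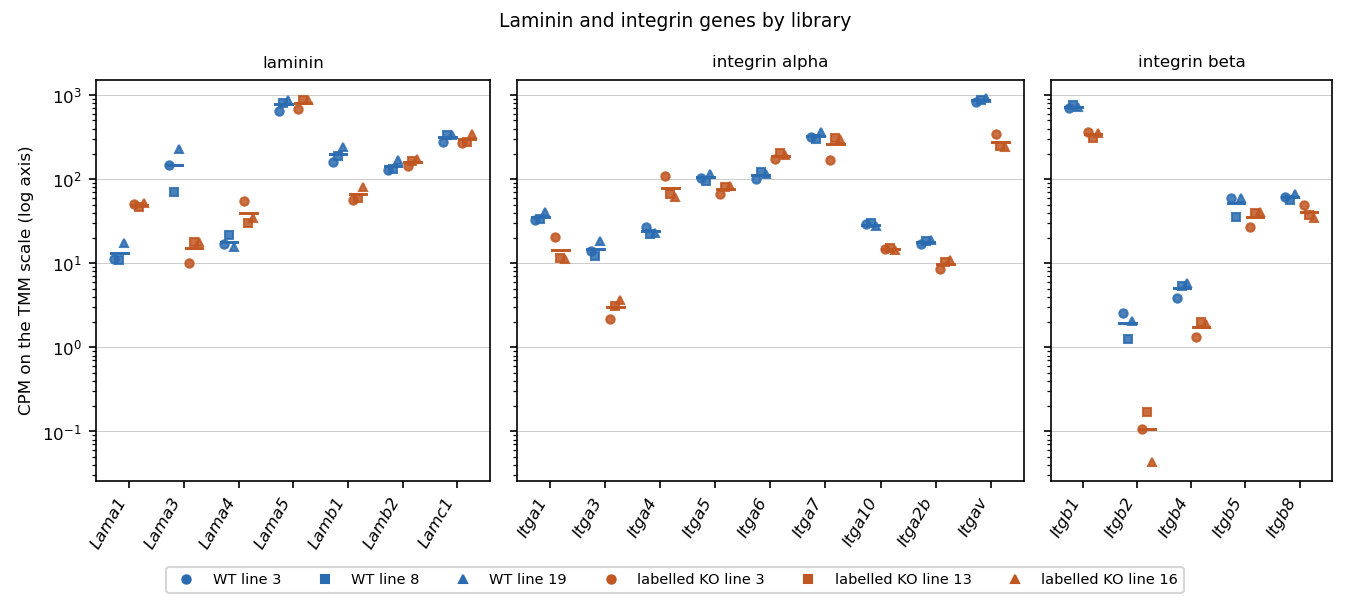
CPM on the TMM scale (log axis) of 7 laminin, 9 integrin alpha and 5 integrin beta genes in each of the 6 libraries, with a bar at the mean of each group (n = 3 lines). Lama1, Lama4, Itga4 and Itga6 are higher and Lama3, Lamb1, Itgav, Itga3 and Itgb1 lower in every library labelled KO than in any WT library, while Lama5, Lamb2 and Lamc1 overlap.

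The make-up of each family was described as shares of the family's summed CPM per kb of exon, which follow from the same counts as the fold changes. Col4a5 held 26.6, 27.8 and 28.4% of the collagen level in WT and 12.5, 13.9 and 14.1% in the libraries labelled KO, and Col5a3 2.35, 2.35 and 2.48% against 13, 11.8 and 11.1%. Of the laminin alpha chains, Lama5 held 77.7, 88.3 and 75.9% in WT and 84.8, 89.4 and 88.4% in the libraries labelled KO, so that it led in every library. The next place was held by Lama3 in all 3 WT libraries (18.7, 8.1 and 21%) and by Lama1 in all 3 libraries labelled KO (7.33, 5.62 and 6.28%). Lamb1 made up 43.3, 46.6 and 46.6% of the laminin beta level in WT and 19.6, 18.2 and 22.4% in the libraries labelled KO, the rest being almost all Lamb2.

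Of the integrin alpha level, Itgav held 46.1, 47.6 and 45.7% in WT and 30.8, 19.8 and 19.8% in the libraries labelled KO. The shares of Itga6 were 6.67, 7.85 and 6.92% and 18.4, 19.8 and 19.2%, and those of Itga7 23.3, 21.9 and 23.7% and 20.4, 33.3 and 33.4%. In WT the order was Itgav, Itga7, Itga5 and Itga6 in all 3 lines. In KO lines 13 and 16 Itga7 came before Itgav, which was close to Itga6, whereas in the library labelled KO line 3 Itgav stayed at the head. Itgb1 held 87.6, 91.9 and 87.7% of the integrin beta level in WT and 87.8, 83.3 and 85.5% in the libraries labelled KO.

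**Figure D4:**
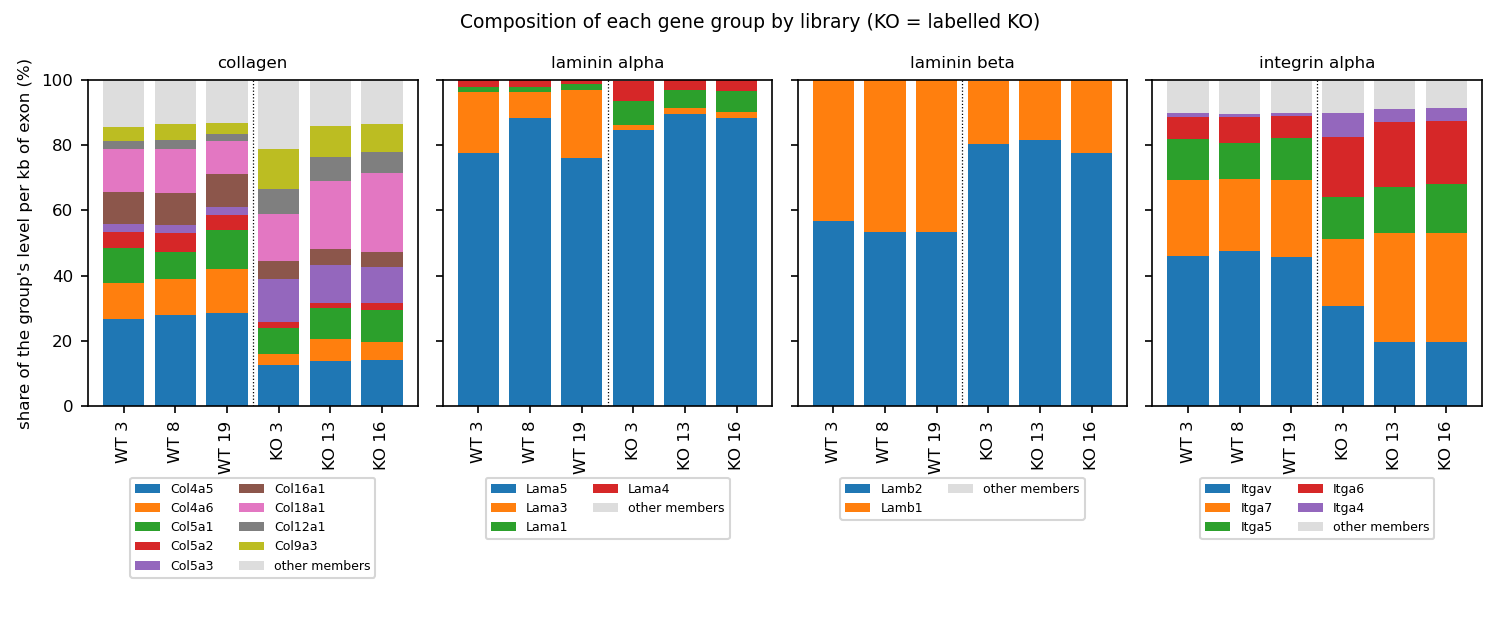
Share of each gene in the level per kb of exon (percent, stacked to 100) of the collagens, the laminin alpha chains, the laminin beta chains and the integrin alpha chains in each library. Col4a5, Col4a6 and Itgav take a smaller part, and Col5a3, Lamb2 and Itga6 a larger part, in the 3 libraries labelled KO than in the 3 WT libraries.

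Members that lie within 200 kb of each other formed 15 pairs in GRCm38, of which both genes were tested in 7, and 6 of these are given here. In the head-to-head type IV pairs with both genes tested, the log2 fold changes were -1.05 and -1.02 for Col4a1 and Col4a2, and -2.21 and -2.10 for Col4a6 and Col4a5. Col4a4 and Col4a3 also lie head to head, 71 bases apart, but Col4a4 was not tested. Col4a4 had 9, 9 and 6 counts in WT and 29, 9 and 11 in the libraries labelled KO, and Col4a3 18, 11 and 12 against 8, 11 and 5. In the other 4 pairs given here at most 1 gene passed, or both passed in opposite directions. Itga1 and Itga2, 20995 bases apart on the same strand, had log2 fold changes of -1.31 and -0.11, and Col5a2 and Col3a1, 24.6 kb apart, of -2.62 and -0.12. Col6a1 and Col6a2 were at -2.60 and -0.76. Col1a1 and Itga3, 91.4 kb apart and tail to tail, were called in opposite directions (1.42 and -2.30). Without the library labelled KO line 3, Col3a1 was called lower too (log2 fold change -2.46), and so was Col6a2 without WT line 3 (-1.22).

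**Figure D5:**
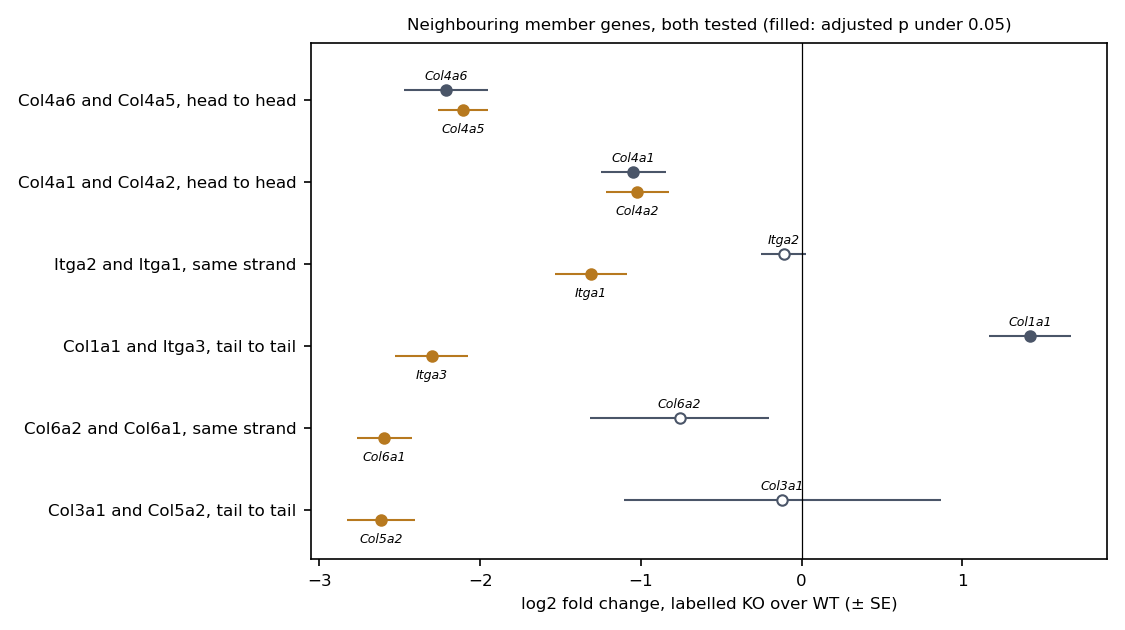
Log2 fold change with SE (n = 3 lines each) of 6 pairs of neighbouring members in which both genes were tested, filled where the adjusted p is under 0.05. The points of the head-to-head type IV pairs shown lie side by side, and those of Col1a1 and Itga3 on opposite sides of 0. The pair of Col4a4 and Col4a3 is not shown because Col4a4 was not tested.

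The 18 members that did not meet the filter on low counts were 11 collagens, 3 integrin alpha chains, 2 integrin beta chains and 2 laminins. Apart from Col15a1 and Col4a4, none had more than 12 counts in a library. Col9a1, the partner of Col9a2, had 1, 0 and 2 counts in WT and 9, 7 and 7 in the libraries labelled KO, so that its groups did not overlap, and the same held for Col24a1 with 0, 1 and 0 and 3, 5 and 3 counts and Col1a2 with 2, 0 and 1 and 3, 7 and 5. When the filter was dropped, Col9a1 and Col24a1 were called higher, and no other untested member was called in either direction. Lamc3, a gamma chain found in brain and retina, had 3, 2 and 1 and 10, 3 and 1 counts. The rest, Col10a1, Col13a1, Col17a1, Col6a5, Col6a6 and Col8a2, had 0 to 10 counts in every library. Reads of 18 members may be mixed with those of another gene whose exons overlap theirs by at least 50 bases, 6 of them on the same strand (Col20a1, Col3a1, Itga1, Itga10, Itgad and Itgam), since the strand setting of the counting is not given in the sources at hand.

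Enzymes and chaperones that make collagen were mostly lower in the libraries labelled KO, with 12 lower and 2 higher of 21 tested and a median log2 fold change of -0.53. These were 57.1% lower and 9.52% higher, where 20.4% and 21.8% of all tested genes were. P4ha1, a proline hydroxylase that stabilises the triple helix, fell from 141 ± 12.9 to 53.3 ± 0.653 CPM (SD, n = 3 each; log2 fold change -1.40, SE 0.11, edgeR adjusted p = 3.76e-05). Plod1, a lysine hydroxylase, fell from 89.3 ± 5.92 to 31.8 ± 3.68 CPM, and Loxl1, an enzyme that cross-links fibres, from 7.47 ± 3.1 to 1.06 ± 0.162 CPM (edgeR adjusted p = 5.09e-05 and 2.82e-04). The 2 that rose, named after their values were seen, were Adamts3, a procollagen protease (log2 fold change 1.33), and P4ha3, another proline hydroxylase (log2 fold change 1.02, edgeR adjusted p = 0.0419). The P4ha3 call was lost without WT line 3, WT line 8, KO line 13 or KO line 16 (edgeR adjusted p = 0.127, 0.136, 0.0882 and 0.113).

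Proteins that link basement membranes and bind laminin were called in both directions, with 4 lower and 5 higher of 15 tested (median log2 fold change 0.063). These were 26.7% lower and 33.3% higher, not far from the 20.4% and 21.8% of all tested genes. Sparc, which binds type IV collagen, fell from 1026 ± 128 to 272 ± 59.6 CPM (log2 fold change -1.92, SE 0.17, edgeR adjusted p = 8.45e-05), and Bcam, a receptor for Lama5, from 7.2 ± 0.213 to 1.85 ± 0.321 CPM (log2 fold change -1.97, SE 0.19, edgeR adjusted p = 1.02e-04). Smoc1, a relative of Sparc, went up from 44.4 ± 2.38 to 125 ± 10.8 CPM (log2 fold change 1.49, SE 0.11, edgeR adjusted p = 3.47e-05). Named after their values were seen, the linkers agrin (Agrn) and nidogen (Nid2) rose as well (log2 fold changes 0.92 and 0.86), and so did the nidogen Nid1 (1.31), while Frem1, of the Fraser complex, and Dag1, dystroglycan, fell (-3.08 and -0.43). The calls of Nid1 and Dag1 were each lost when some libraries were left out. For Nid1 this was WT line 3 (edgeR adjusted p = 0.0581). For Dag1 it was WT line 8 or 19 or the library labelled KO line 3 or 13 (edgeR adjusted p = 0.0964, 0.156, 0.0564 and 0.147). Without WT line 3 the list had 3 genes higher in place of 5.

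Other matrix ligands of integrins were also called in both directions, with 4 lower and 6 higher of 17 tested (median log2 fold change 0.26). These were 23.5% lower and 35.3% higher, where 20.4% and 21.8% of all tested genes were. The fibrillins Fbn1 and Fbn2 rose from 57.5 ± 10.1 to 173 ± 20.4 CPM and from 377 ± 28 to 823 ± 39.5 CPM (edgeR adjusted p = 1.02e-04 and 1.01e-04). Npnt, the ligand of Itga8, fell from 80.9 ± 2.64 to 16.5 ± 5.31 CPM (log2 fold change -2.29, SE 0.22, edgeR adjusted p = 1.01e-04), and the tenascin Tnxb, the thrombospondin Thbs2 and Spp1, osteopontin, named after their values were seen, fell too (log2 fold changes -4.26, -3.58 and -0.95). Without the library labelled KO line 3 the log2 fold change of Tnxb was -4.86. Integrin adaptors and kinases were more often higher, with 4 lower and 12 higher of 27 tested (median log2 fold change 0.24). That was 14.8% lower and 44.4% higher, although without WT line 8 the number higher was 7. Ptk2, the focal adhesion kinase, went up from 182 ± 4.56 to 365 ± 53 CPM (log2 fold change 1.01, SE 0.12, edgeR adjusted p = 3.43e-04), while its relative Ptk2b and the adaptor Parvb fell (log2 fold changes -1.85 and -1.88). The other 2 that fell, the kindlin Fermt2 and the talin-binding Kank2, were named after their values were seen (log2 fold changes -0.40 and -0.45), and the Fermt2 call was lost without KO line 13 (edgeR adjusted p = 0.0546). Of the other collagen receptors, the kinase Ddr2 rose (log2 fold change 0.75, edgeR adjusted p = 0.00309), and Ddr1 and Mrc2 did not pass (edgeR adjusted p = 0.228 and 0.64).

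The labelled cell type was checked against its markers, and cell types rich in matrix were looked for. All 10 neural stem cell and radial glia markers were tested, with 2 called lower and 0 higher. In 4 of them every library labelled KO lay below every WT library, as in 25.7% of all tested genes, and in 0 the reverse held. Sox2, Nes and Pax6 were present in every library and did not pass. The 10 markers summed to 7944 to 8987 CPM in WT and 5908 to 7329.9 CPM in the libraries labelled KO. The 12 markers of fibroblasts and meninges summed to 239.8 to 264 CPM in WT and 114 to 151 CPM in the libraries labelled KO, with 3 of 5 tested lower. Most of this was Prrx1 (179 ± 8.36 and 65.8 ± 14 CPM), and the rest came almost all from other markers of the list. The fibroblast genes Dcn and Lum were at no more than 0.488 CPM in every library and Twist2 had 0 counts. The 10 endothelial markers summed to 13.6 to 18.8 CPM in WT and 13.1 to 16.1 CPM in the libraries labelled KO. Of 6 tested, 2 were called lower and 1 higher. Cdh5 and Cldn5 were at no more than 0.129 CPM, so that the sum came from other endothelial markers. The 9 pericyte and smooth muscle markers summed to 247 to 358 CPM in WT and 171 to 181 CPM in the libraries labelled KO. Most of this was Notch3, which precursors also make. Of the 5 tested pericyte and smooth muscle markers 3 were called higher and 1, Notch3, lower. The 9 blood and microglia markers found summed to 50.9 to 57 CPM in WT and 36.8 to 43.1 CPM in the libraries labelled KO. Of 3 tested, 1 was called lower and 0 higher. Ptprc reached 0.152 CPM and Tmem119 had 0 counts, so that the sum came from other markers of this list. Low levels of the few markers named do not show that such cells were absent. Astrocyte markers fell in 4 of 7 (303 to 582 CPM in WT and 149 to 197 CPM in the libraries labelled KO) and oligodendrocyte lineage markers rose in 4 of 7 tested (685 to 767 CPM in WT and 1110.2 to 1309 CPM in the libraries labelled KO), and neuron markers in 3 of 6 tested (71.2 to 105 CPM in WT and 162 to 212 CPM in the libraries labelled KO). Beside these counts of marker calls, 20.4% of all tested genes were called lower and 21.8% higher. Markers of choroid plexus and epithelium were near 0 apart from Otx2 and, in the library labelled KO line 3 alone, Cdh1. The sums of radial glia, fibroblast and meninges, blood and microglia, and astrocyte markers were thus lower, as was Notch3,, and those of oligodendrocyte lineage and neuron markers higher, in every library labelled KO than in any WT library, beside the collagen and integrin sums, and their part in those results was not tested.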

How the data were processed

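What the authors deposited are raw counts per gene symbol for 6 libraries, not normalized. The build was mm10, and cutadapt 1.14, STAR, DESeq2 and HTSeq 0.7.2 are named, per the submitters' processing notes. Neither the annotation nor the strand setting is given in the sources used here, nor whether intronic reads of nuclear RNA were counted.

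Counts were tested over all genes with edgeR 4.0.16 in R 4.3.3 (filterByExpr, TMM, robust quasi-likelihood fit, KO against WT, Benjamini-Hochberg, two-sided, threshold 0.05). The SE was derived from the F statistic and intervals are at 95%. Exon lengths and positions came from GENCODE mouse release 21 (GRCm38), in which all 80 members were found. Values per kb are CPM divided by the length of all exons. The fit was tested on simulated data. Alternatives were DESeq2 1.42.0, limma 3.58.1 (voom with sample weights), other scalings and filters, a threshold of 0.10, an Xist covariate and left-out libraries.

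The members, lists and tests were chosen with earlier results of these data known. Values of every library are given for up to 8 members of each family with the largest fold changes among called, non-overlapping members of at least 1 CPM, the 2 members of each family with the highest level per kb, the type IV genes and Itgb1. Further members were named after their values were seen. From each further list up to 3 genes with the smallest p-value were named. A few genes that enter the counts are not reported here by name.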

Additional observations from a re-analysis of the deposited data

How the results depend on the processing

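Of the 38 members called, 34 were called in the same direction under all 15 alternative fits in which they were tested, and the exceptions were Col12a1, Col25a1, Itga5 and Itgal. With the DESeq2 Wald test 37 of the 38 were called and Itgal was lost (DESeq2 adjusted p = 0.0919). That test also called Col6a3 and Itgb5 lower (DESeq2 adjusted p = 0.037 and 0.0383). With a filter of 1 CPM in 3 libraries 37 were called and Itgal was not tested. Itgal was also lost once WT line 19 and the library labelled KO line 3 were both removed (edgeR adjusted p = 0.0779). No called member changed sign under any of the alternative fits. The counts per family moved by at most 1.5 times, which laminins reached in both directions and integrin alpha chains called higher did under some settings, each going from 2 to 3. The other size factors and library size alone changed no member's call, and moved the median of all genes by under 0.1 on the log2 scale. Limma-voom with sample weights called 7 further members and the Xist covariate 4, Itga7, Itga9, Itgb5 and Lama2.

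Leaving out each library in turn gave 1994 (without WT line 3) to 3666 genes called higher over all genes, against 3040 with all 6, and 3 to 6 for basement membrane linkers, 7 to 14 for integrin adaptors and 1 to 2 for collagen modification genes, against 5, 12 and 2. For the last list the count was also 1 with no filter on low counts, with a filter of 1 CPM, with the DESeq2 Wald test and with the Xist covariate. Under that covariate 1 of the other collagen receptors, Ddr1, was called lower, against 0 (edgeR adjusted p = 0.0107). Log2 fold changes that had not passed turned sign for some genes. Without each library in turn, Col3a1 ran from -2.46 to 0.46, Itga11 from -0.63 to 0.20, Lama5 from -0.072 to 0.16, Lamc1 from -0.18 to 0.0028 and Mrc2 from -0.11 to 0.47. Itga2 was 0.016 in limma-voom with sample weights, Lama5 -0.055 with the Xist covariate, and, once WT line 19 and the library labelled KO line 3 were both removed, Lamc1 was 0.046 and Ddr1 0.0018. Col11a2 was 0.0032 with the Xist covariate. The cause of these changes was not tested.

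No paired analysis was possible because the WT and KO lines share only the line number 3. Depth limits the 18 untested members, most of which had under 13 counts in every library.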
